A study of Mus musculus with 12 samples.

Results

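The genes described here lie beside Cacna1g on mouse chromosome 11 and were chosen by position, from a list of 37 symbols within about 3 Mb of it. All 37 were found among the 24411 gene symbols of the count table. On GRCm38 (GENCODE release M21) Cacna1g spans chr11:94408391-94474198 on the minus strand, and the listed genes run from Car10, 0.81 Mb away towards lower coordinates, to Calcoco2, 1.63 Mb away towards higher coordinates. All 37 are annotated as protein coding.

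The tissue was medial prefrontal cortex, taken from females 8 to 12 weeks old. The groups were wild type (WT) without stress, WT with chronic stress, Cav3.1 knockout (KO) without stress and KO with chronic stress, each with 3 libraries. Both genotypes are labelled C57BL/6J. Stressed mice went through a forced swim or a tail suspension session daily over 5 days. WT mice were bought from Clea Japan and KO mice came from the RIKEN BRC, so genotype and colony cannot be told apart in any comparison of KO with WT, and the labels do not say which exons the knockout removes.

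Cacna1g encodes Cav3.1, the pore subunit of a low-voltage-activated (T-type) calcium channel. A targeted allele is commonly made in embryonic stem cells of one strain and then bred into another, and each generation of selection for the allele also selects the DNA next to it. A stretch of the donor strain's chromosome can therefore stay with the knockout, and genes inside it can differ in expression between knockout and purchased wild type for reasons unrelated to the missing protein. The counts hold no sequence variants, so such a stretch is not itself measured here; what can be measured is whether the neighbours of Cacna1g differ with genotype, and whether they do so both without and with stress.

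Library totals ran from 15469590 to 31082240 estimated counts. Levels are given in CPM, read counts scaled to library size with TMM factors. Differences are log2 fold changes of KO over WT with their standard errors, from edgeR's quasi-likelihood test of all 12 libraries as 4 group means, and a gene is called where its Benjamini-Hochberg adjusted p over 15199 tested genes is under 0.05. Whether each library is a different animal is not stated in the labels, and the p-values therefore rest on library-to-library spread alone. Of the 11 cortical excitatory neuron markers all were detected, with summed levels of 4050 to 6530 CPM per library, the lowest 2 (4050 and 4610 CPM) in unstressed WT libraries 1 and 2. The unstressed WT libraries 1 and 2 stood apart from the other 10: their summed level of 15 olfactory bulb markers (14 of them tested) was 2150 and 2190 CPM against 323 to 572 CPM elsewhere, and that of 15 meningeal and fibroblast markers was 280 and 325 CPM against 39.9 to 118 CPM. Their 11 cortical interneuron markers summed to 2550 and 2220 CPM against 1150 to 1430 CPM. Stressed KO library 1 stood apart in 10 tested of 12 striatal projection neuron markers, summed to 963 CPM against 275 to 321 CPM. The 12 oligodendrocyte and myelin markers summed to 1980, 2140 and 3430 CPM in stressed WT and 2850, 1340 and 1270 CPM in stressed KO. In the unstressed libraries they summed to 1350 to 1720 CPM, and their part in the results was not tested. No marker of these lists stood at 0 in every library.

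The targeted gene itself was lower in KO under both conditions. Cacna1g stood at 133, 144 and 135 CPM in unstressed WT, 128, 110 and 109 CPM in stressed WT, 65.1, 54.6 and 61.7 CPM in unstressed KO, and 58.5, 66 and 57.6 CPM in stressed KO. All 6 KO libraries lay below all 6 WT libraries, and reads were still counted to the gene in every KO library. Its log2 fold change was -1.18 ± 0.09 without stress (edgeR adjusted p = 9.97e-05) and -0.93 ± 0.09 with stress (edgeR adjusted p = 5.19e-04). An exact two-sided permutation test of its log2 CPM over 6 against 6 libraries gave p = 0.00216, the smallest it can give.

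Among the flanking genes, the 2 conditions gave different counts of calls. Of the 37, 30 had enough counts to be tested. Without stress 12 of these 30 (40.0%) were called, 7 higher and 5 lower in KO, beside 3529 of all genes tested (23.2%). With stress none was called, beside 38 of all genes (0.250%), and the only chromosome 11 gene among those 38 was Cacna1g. For that count of 0 from edgeR, 5 of the 30 had an unadjusted p under 0.05, as did 1973 of all genes. DESeq2 called 1, Samd14, beside 296 of all genes. Averaged over the stress conditions 2 of 30 (6.67%) were called, Samd14 and Slc35b1, both higher in KO, beside 962 of all genes (6.33%). The count without stress moved with single libraries. It was 5 without unstressed WT library 1, 0 without unstressed WT library 2, 3 without unstressed KO library 2 and 6 without unstressed KO library 3, where 1542, 234, 988 and 1922 of all genes were called. With unstressed WT libraries 1 and 2 both left out, that group is 1 library, assumed to vary like the others, and 0 of 30 were called beside 18 of all genes (0.116%). All 12 genes kept their sign in that fit. They were picked with the remaining unstressed WT library in the fit, so the kept sign is no further support. On the log2 scale Nme2 went from 0.61 to 0.65, Nme1 from 0.55 to 0.50 and Slc35b1 stayed at 0.23. Snf8 went from 0.42 to 0.32 and Luc7l3 from -0.56 to -0.43. The values that moved most were those of Wfikkn2, from -2.13 to -1.01, and Ngfr, from -1.36 to -0.07.

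**Figure D1:**
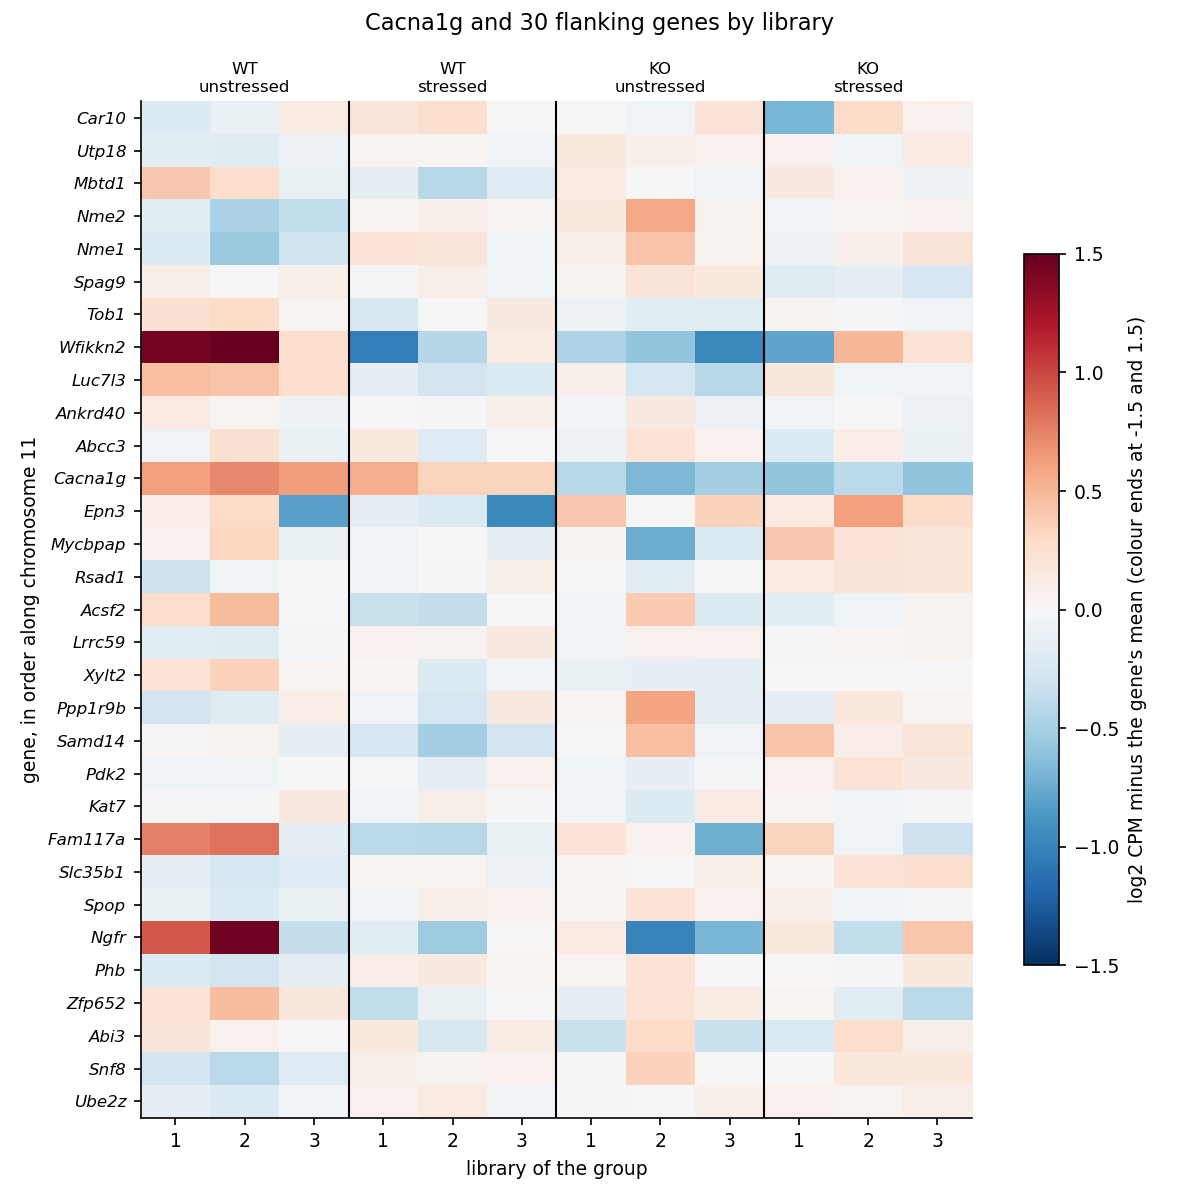
Log2 CPM of Cacna1g and the 30 tested flanking genes in each library (columns, by group), minus the gene's mean over the 12 libraries; rows follow the chromosome and colours end at -1.5 and 1.5. Cacna1g is the row with all 6 KO libraries below all 6 WT libraries, and Wfikkn2 and Ngfr are highest in unstressed WT libraries 1 and 2.

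No flanking gene had all 6 KO libraries on one side of all 6 WT libraries, a pattern shown by 342 of all genes (2.25%). Within a condition, the 3 KO and the 3 WT libraries did not overlap for 12 of the 30 without stress, 8 of them higher in KO, where 5547 of all genes (36.5%) did not overlap. With stress they did not overlap for 7 of the 30, 6 of them higher in KO, where the share over all genes was 22.1%. The sign of the difference was the same in both conditions for 11 of the 30 (36.7%), beside 48.5% of all genes. Across the 30 genes, which share libraries and are not replicates, the differences without and with stress had a Pearson r of -0.31 and a Spearman rho of -0.34, beside 0.02 and -0.01 over all genes; these 2 comparisons have no library in common.

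**Figure D2:**
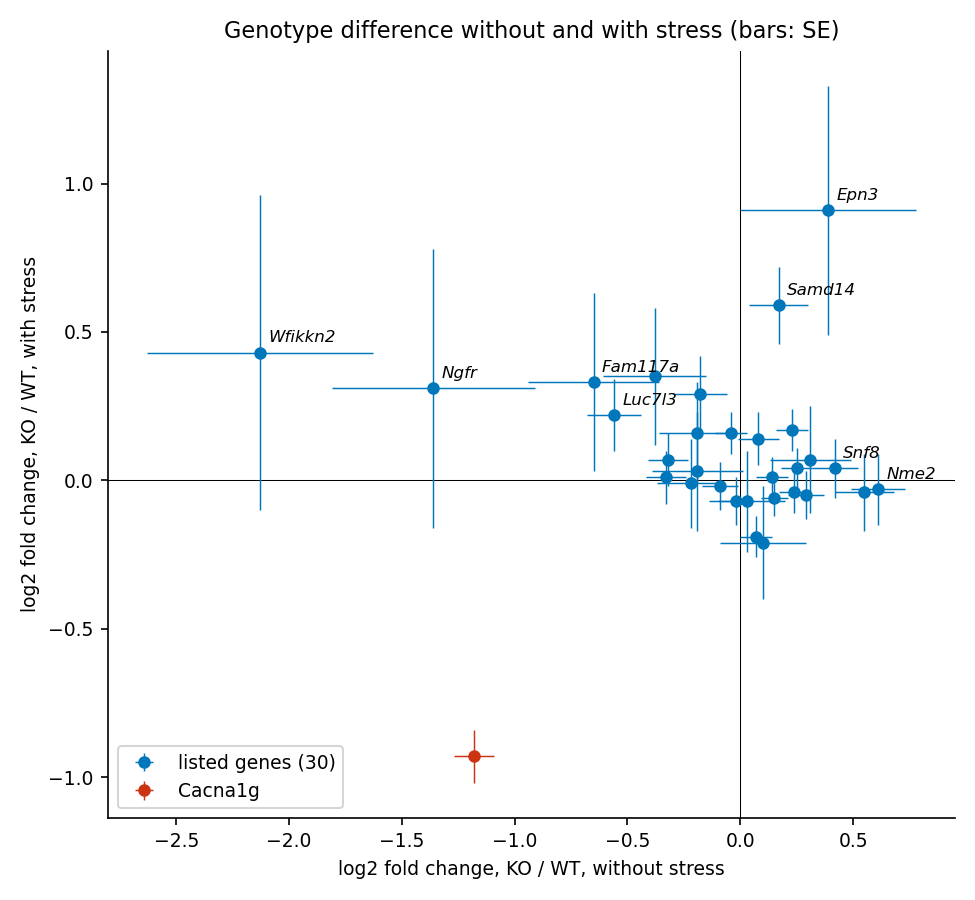
Log2 fold change of KO over WT without stress (x axis) and with stress (y axis) for the 30 tested flanking genes and Cacna1g; bars are standard errors. Cacna1g is below 0 on both axes, at -1.18 and -0.93, while Samd14 and Epn3 are the flanking genes furthest above 0 with stress, at 0.59 and 0.91.

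The genes that handle chromatin, RNA and DNA held 6 tested members, of which 3 were called without stress, 1 higher and 2 lower in KO, where 23.2% of all genes were called; the groups by role are too small to set their shares against it. Luc7l3, a splicing factor associated with the U1 small nuclear ribonucleoprotein, is the nearest called gene, 86.4 kb from Cacna1g. It stood at 192, 189 and 167 CPM in unstressed WT, 128, 117 and 122 CPM in stressed WT, 149, 117 and 105 CPM in unstressed KO, and 158, 134 and 136 CPM in stressed KO. Unstressed KO was below unstressed WT in every library, while stressed KO was above stressed WT in every library. The log2 fold change was -0.56 ± 0.12 without stress (edgeR adjusted p = 0.0125) and 0.22 ± 0.12 with stress (edgeR adjusted p = 0.462). For the difference between these 2 values, 0.79 ± 0.17, the edgeR adjusted p was 0.0507.

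Tob1, an antiproliferative protein that binds the deadenylase complex, stood at 48.5, 49.6 and 42.5 CPM in unstressed WT, 35.0, 41.6 and 45.4 CPM in stressed WT, 38.8, 36.6 and 36.7 CPM in unstressed KO, and 42.7, 40.7 and 39.3 CPM in stressed KO. The unstressed groups did not overlap and the stressed groups did. Its log2 fold change was -0.33 ± 0.09 without stress (edgeR adjusted p = 0.0305) and 0.01 ± 0.09 with stress. Utp18, a component of the small-subunit processome that matures ribosomal RNA, stood at 21.9, 21.7 and 23.0 CPM in unstressed WT, 25.3, 25.0 and 23.5 CPM in stressed WT, 27.2, 26.1 and 25.8 CPM in unstressed KO, and 25.8, 23.5 and 26.8 CPM in stressed KO. Unstressed WT was lowest, unstressed KO lay above stressed WT without overlap, and stressed KO overlapped both of these. The log2 fold change of Utp18 was 0.25 ± 0.07 without stress (edgeR adjusted p = 0.0286) and 0.04 ± 0.07 with stress.

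Utp18 starts 86 bases from Mbtd1, a subunit of the TIP60 acetyltransferase complex, and the pair is read in opposite directions. The promoter window of Mbtd1, which also covers the start of Utp18, is shown because only one of the pair was called between genotypes. Whether the genes share a promoter was not tested. The stretch covers 250 bases before to 50 after the start of Mbtd1, chr11:93885600-93885899 on the plus strand (RefSeq, GRCm38.p6), and capitals mark GC boxes (GGGCGG, or CCGCCC on the other strand) and E-boxes (CACGTG).
Mbtd1 promoter: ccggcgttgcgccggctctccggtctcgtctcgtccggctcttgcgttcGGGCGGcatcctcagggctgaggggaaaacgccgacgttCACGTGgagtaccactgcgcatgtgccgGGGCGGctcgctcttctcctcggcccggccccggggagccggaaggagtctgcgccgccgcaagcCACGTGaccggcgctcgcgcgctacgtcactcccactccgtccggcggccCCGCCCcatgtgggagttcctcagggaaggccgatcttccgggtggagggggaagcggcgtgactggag
It holds 3 GC boxes, 2 E-boxes and 41 CpG dinucleotides, with a GC content of 71.7%. Mbtd1 had a log2 fold change of -0.18 ± 0.12 without stress (edgeR adjusted p = 0.318) and 0.29 ± 0.13 with stress (edgeR adjusted p = 0.362). Kat7, the HBO1 histone acetyltransferase, gave -0.09 ± 0.08 and -0.02 ± 0.08. Zfp652, a zinc finger repressor, gave -0.22 ± 0.15 and -0.01 ± 0.15; it overlaps Abi3 and other tested genes, and whether the counting used strand is not given.

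Of 6 tested genes of mitochondria and metabolism, 3 were called without stress (23.2% of all genes), all higher in KO. Nme1 and Nme2, nucleoside diphosphate kinases that keep nucleoside triphosphate pools in balance, lie next to each other on the minus strand 440 and 452 kb from Cacna1g. Nme2 stood at 46.6, 37.8 and 40.6 CPM in unstressed WT, 53.7, 55.5 and 53.9 CPM in stressed WT, 58.4, 78.7 and 54.4 CPM in unstressed KO, and 50.9, 53.7 and 55.2 CPM in stressed KO. Nme1 stood at 128, 100 and 120 CPM in unstressed WT, 170, 167 and 142 CPM in stressed WT, 158, 200 and 153 CPM in unstressed KO, and 140, 157 and 169 CPM in stressed KO. For both genes the unstressed WT libraries lay below the other 9, and unstressed KO library 2 was the highest of the 12. That library also had the highest sum of 10 astrocyte markers, 4950 CPM against 2730 to 3580 CPM, whose part in the result was not tested. Nme2 had a log2 fold change of 0.61 ± 0.12 without stress (edgeR adjusted p = 0.0105) and -0.03 ± 0.12 with stress. The values of Nme1 were 0.55 ± 0.13 (edgeR adjusted p = 0.0151) and -0.04 ± 0.13. An annotated readthrough transcript, Gm20390, overlaps both genes and has no row in the table, so how its reads were assigned is not known.

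The promoters of Nme1 and Nme2 are set side by side because these neighbours had the 2 largest positive differences without stress among the flanking genes and near-equal ones. Each covers 250 bases before to 50 after the RefSeq start on the minus strand of GRCm38.p6, at chr11:93968223-93968522 for Nme1 and chr11:93956207-93956506 for Nme2. The capitals mark an E-box.
Nme1 promoter: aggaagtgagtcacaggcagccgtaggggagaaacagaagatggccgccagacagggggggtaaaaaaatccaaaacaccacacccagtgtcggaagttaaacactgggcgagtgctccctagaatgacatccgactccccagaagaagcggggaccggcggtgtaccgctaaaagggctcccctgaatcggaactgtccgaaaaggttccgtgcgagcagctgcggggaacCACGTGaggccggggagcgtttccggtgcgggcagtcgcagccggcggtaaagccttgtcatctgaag
Nme2 promoter: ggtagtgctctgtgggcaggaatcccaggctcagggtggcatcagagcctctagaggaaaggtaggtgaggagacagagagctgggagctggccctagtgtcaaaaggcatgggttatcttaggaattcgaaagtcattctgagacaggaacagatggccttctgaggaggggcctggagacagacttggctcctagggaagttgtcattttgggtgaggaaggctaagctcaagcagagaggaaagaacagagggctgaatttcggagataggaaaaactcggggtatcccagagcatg
The Nme1 stretch holds 1 E-box and 22 CpG dinucleotides at 59.3% GC, and the Nme2 stretch holds none of the motifs searched and 3 CpG dinucleotides at 52.7% GC.

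Phb encodes prohibitin, a scaffold of the inner mitochondrial membrane, and stood at 63.8, 60.6 and 66 CPM in unstressed WT, 78.9, 80.1 and 75.1 CPM in stressed WT, 75.4, 84.9 and 72.8 CPM in unstressed KO, and 73.5, 71.6 and 81.4 CPM in stressed KO. Here too the 3 unstressed WT libraries lay below the other 9. The log2 fold change was 0.29 ± 0.08 without stress (edgeR adjusted p = 0.0217) and -0.05 ± 0.08 with stress. Rsad1, a radical SAM domain protein 65.6 kb from Cacna1g, stood at 13.7, 16.1 and 16.8 CPM in unstressed WT, 16.2, 17.2 and 17.9 CPM in stressed WT, 17.0, 15.0 and 17.0 CPM in unstressed KO, and 18.3, 19.3 and 19.2 CPM in stressed KO. The stressed groups did not overlap and the unstressed groups did, with log2 fold changes of 0.14 ± 0.09 (edgeR adjusted p = 0.558) and 0.08 ± 0.09. Pdk2, a kinase that inhibits pyruvate dehydrogenase, gave -0.04 ± 0.07 without and 0.16 ± 0.07 with stress, and Acsf2, an acyl-CoA synthetase, gave -0.19 ± 0.17 and 0.16 ± 0.17. None of Rsad1, Pdk2 and Acsf2 passed the threshold.

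Protein turnover and membrane traffic gave 2 calls without stress among 5 tested genes (23.2% of all genes), both higher in KO. Snf8, a subunit of the ESCRT-II complex that sorts ubiquitinated membrane proteins, stood at 39.8, 36.4 and 42.4 CPM in unstressed WT, 51.1, 50.1 and 50.8 CPM in stressed WT, 49.0, 61.4 and 48.5 CPM in unstressed KO, and 48.5, 54.2 and 54.2 CPM in stressed KO. Its unstressed WT libraries were again the lowest 3 of 12. The log2 fold change was 0.42 ± 0.10 without stress (edgeR adjusted p = 0.0147) and 0.04 ± 0.10 with stress. Spop, a substrate adaptor of a cullin-3 ubiquitin ligase, stood at 224, 207 and 225 CPM in unstressed WT, 234, 256 and 253 CPM in stressed WT, 246, 278 and 251 CPM in unstressed KO, and 254, 229 and 238 CPM in stressed KO. The unstressed groups did not overlap, the stressed groups did, and the log2 fold change was 0.24 ± 0.07 without stress (edgeR adjusted p = 0.0377) and -0.04 ± 0.07 with stress.

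Epn3, an epsin that takes part in endocytosis and lies 15.4 kb from Cacna1g, stood at 0.447, 0.521 and 0.199 CPM in unstressed WT, 0.362, 0.343 and 0.171 CPM in stressed WT, 0.572, 0.411 and 0.548 CPM in unstressed KO, and 0.453, 0.675 and 0.512 CPM in stressed KO. These levels are only 5 to 17 counts per library. The stressed groups did not overlap and the unstressed groups did. With stress the log2 fold change was 0.91 ± 0.42 (edgeR adjusted p = 0.394), and without stress 0.39 ± 0.39 (edgeR adjusted p = 0.497). Ube2z, a ubiquitin-conjugating enzyme that also carries Fat10, gave 0.14 ± 0.07 and 0.01 ± 0.07 without and with stress. For Lrrc59, a ribosome-binding protein of the endoplasmic reticulum, the values were 0.15 ± 0.06 and -0.06 ± 0.06.

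Sugar and nucleotide-sugar handling and transport gave 2 calls without stress among 3 tested genes (23.2% of all genes). Slc35b1, a nucleotide transporter of the endoplasmic reticulum membrane 911 kb from Cacna1g, was called both without stress and on average. It stood at 33.7, 31.1 and 32.6 CPM in unstressed WT, 37.8, 38.3 and 35.0 CPM in stressed WT, 38, 36.9 and 39.6 CPM in unstressed KO, and 38.2, 43.0 and 43.8 CPM in stressed KO. The unstressed groups did not overlap, and in the stressed groups the lowest KO library lay just under the highest WT library. The log2 fold change was 0.23 ± 0.07 without stress (edgeR adjusted p = 0.0376), 0.17 ± 0.07 with stress (edgeR adjusted p = 0.358) and 0.20 ± 0.05 on average (edgeR adjusted p = 0.0433). The call on average was lost without any 1 of 10 of the libraries, all except unstressed WT library 3 and stressed KO library 1, with edgeR adjusted p from 0.0563 to 0.124. The log2 fold change stayed at 0.20 on average with unstressed WT libraries 1 and 2 left out (edgeR adjusted p = 0.198).

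The promoter of Slc35b1, the flanking gene called in both of those comparisons, covers 250 bases before to 50 after its RefSeq start at chr11:95384606-95384905 on the plus strand of GRCm38.p6. It holds none of the motifs searched, so no letter is in capitals.
Slc35b1 promoter: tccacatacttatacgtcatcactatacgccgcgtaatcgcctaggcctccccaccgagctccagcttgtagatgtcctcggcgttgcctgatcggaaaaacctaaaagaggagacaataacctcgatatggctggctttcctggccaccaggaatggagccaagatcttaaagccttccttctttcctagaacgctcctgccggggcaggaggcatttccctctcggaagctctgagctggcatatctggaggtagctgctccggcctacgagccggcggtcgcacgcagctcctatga
It holds 19 CpG dinucleotides at 55.7% GC. The motifs searched, on both strands, were the CCAAT box, the GC box (GGGCGG), the TATA box (TATAAA) and the E-box (CACGTG, which reads the same on both strands). No motif contains another. RefSeq windows were found for 30 of the 37 flanking genes, 36 windows in all. A CCAAT box was in 10 of these windows (27.8%) and 37.4% of all 32817 windows, and a GC box in 17 (47.2%) and 35.6%. A TATA box was in 3 (8.33%) and 13.6%, and an E-box in 7 (19.4%) and 7.15%. Windows with close starts can share letters, and these shares were not tested. These matches are letters only.

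Xylt2, a xylosyltransferase that starts glycosaminoglycan chains, stood at 29.8, 32.8 and 26.6 CPM in unstressed WT, 26.5, 22.6 and 25.3 CPM in stressed WT, 24.3, 23.9 and 23.5 CPM in unstressed KO, and 26.1, 25.8 and 26.0 CPM in stressed KO. Unstressed WT was the highest group, and its 3 libraries lay above all 6 KO libraries. KO over WT came to a log2 fold change of -0.32 ± 0.09 without stress (edgeR adjusted p = 0.0247) and 0.07 ± 0.09 with stress. Abcc3, an exporter of organic anions and the nearest tested neighbour on the side of lower coordinates, 15.4 kb away, had levels of 2.47 to 3.40 CPM. Its log2 fold change was 0.03 ± 0.17 without stress and -0.07 ± 0.17 with stress.

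**Figure D3:**
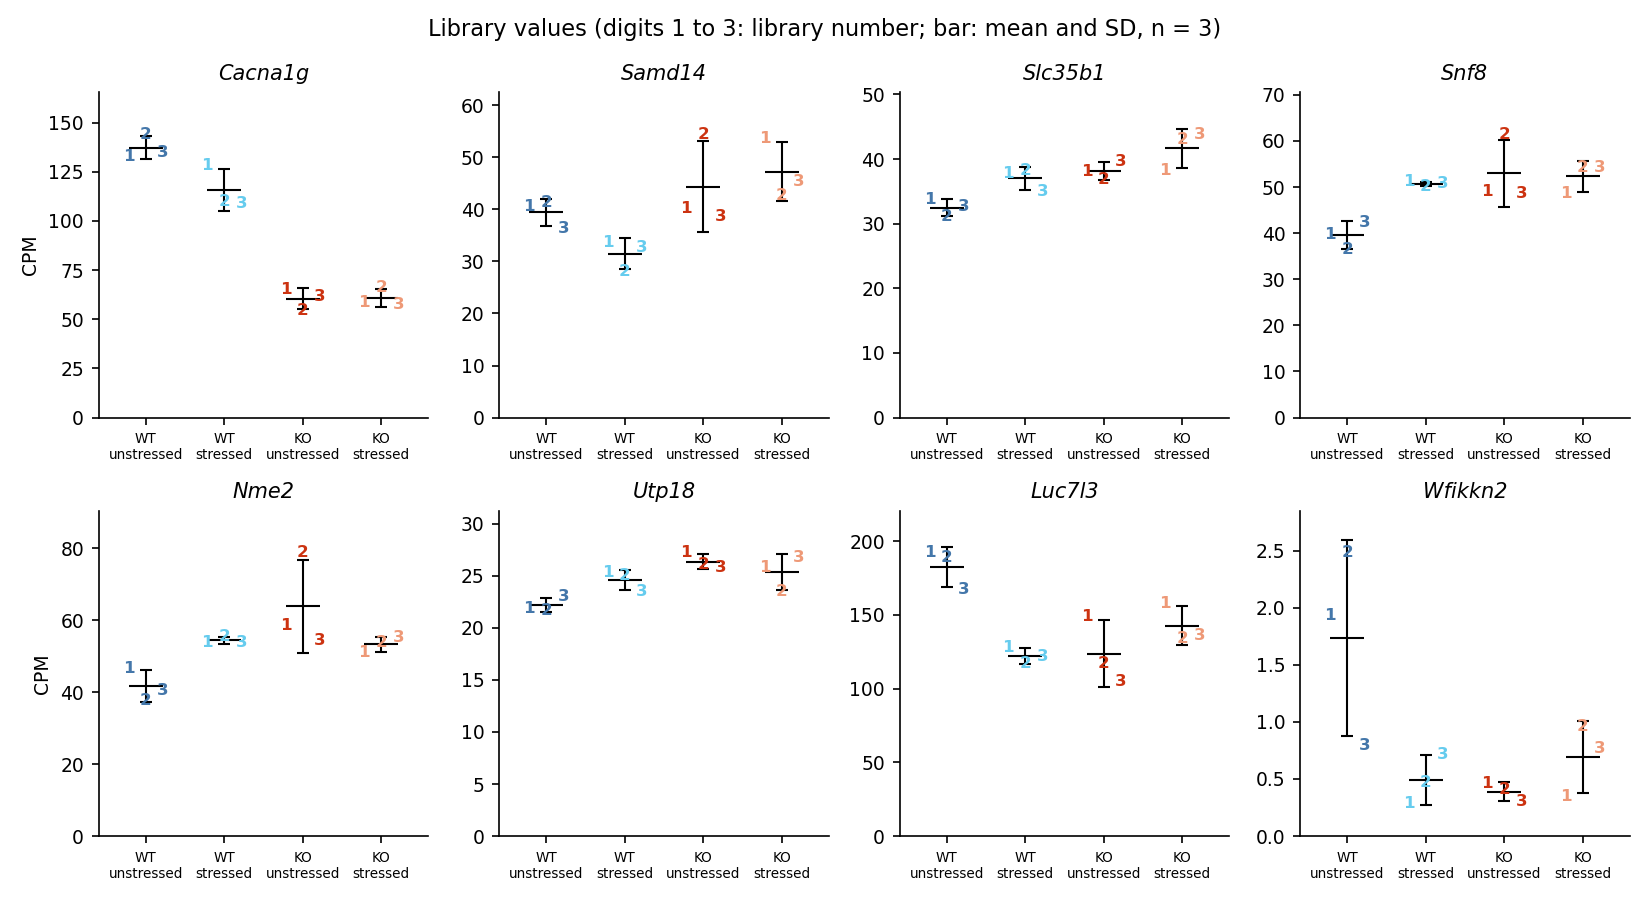
Level in CPM of Cacna1g and 7 flanking genes in each library, by group; digits are library numbers, horizontal bars group means and whiskers SD (n = 3), and every axis starts at 0. For Snf8, Nme2 and Utp18 the unstressed WT group is lowest and for Luc7l3 and Wfikkn2 it is highest, while stressed KO and stressed WT separate for Samd14 and Luc7l3 among the flanking genes plotted.

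Of the 6 tested genes of the synapse, neuron and signalling, 1 was called without stress, Ngfr, lower in KO, and 1 on average, Samd14, higher in KO, where 23.2% and 6.33% of all genes were called. Samd14, a sterile alpha motif protein known from Kit signalling in mouse blood precursors, lies 536 kb from Cacna1g. It stood at 40.6, 41.3 and 36.4 CPM in unstressed WT, 33.7, 28.1 and 32.7 CPM in stressed WT, 40.2, 54.4 and 38.6 CPM in unstressed KO, and 53.7, 42.7 and 45.4 CPM in stressed KO. The stressed groups did not overlap, while unstressed KO overlapped unstressed WT in 2 of its 3 libraries. The log2 difference was 0.17 ± 0.13 without stress (edgeR adjusted p = 0.363), 0.59 ± 0.13 with stress (edgeR adjusted p = 0.111) and 0.38 ± 0.09 on average (edgeR adjusted p = 0.0401). The difference between the 2 conditions, 0.42 ± 0.19, gave an edgeR adjusted p of 0.17. DESeq2 called the difference with stress (0.59, DESeq2 adjusted p = 0.00845). The highest stressed KO value was in library 1, which carried the striatal markers, and without that library the average was 0.33 (edgeR adjusted p = 0.0714). The call on average was likewise lost without any other 1 of 9 libraries, with edgeR adjusted p from 0.0530 to 0.0859 over those 10; it held without unstressed WT library 3 and without unstressed KO library 3.

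Ngfr, the p75 neurotrophin receptor, stood at 2.13, 3.13 and 0.828 CPM in unstressed WT, 0.965, 0.728 and 1.09 CPM in stressed WT, 1.18, 0.502 and 0.648 CPM in unstressed KO, and 1.22, 0.820 and 1.47 CPM in stressed KO. The libraries above the rest were unstressed WT 1 and 2, which carried the olfactory bulb and meningeal markers, and unstressed WT library 3 fell within the unstressed KO range. In bulk tissue, fewer cells of a type and less RNA per cell cannot be told apart. KO over WT came to a log2 fold change of -1.36 ± 0.45 without stress (edgeR adjusted p = 0.0491) and 0.31 ± 0.47 with stress, and without those 2 libraries the first was -0.07 (edgeR adjusted p = 0.967). Ppp1r9b (spinophilin), which holds protein phosphatase 1 at dendritic spines, ran from 838 to 1550 CPM with log2 fold changes of 0.31 ± 0.18 and 0.07 ± 0.18. Car10, a secreted carbonic anhydrase relative that binds neurexins, ran from 104 to 200 CPM and gave 0.10 ± 0.19 and -0.21 ± 0.19, its lowest value being in stressed KO library 1. Spag9 (JIP4), a scaffold of kinase signalling and vesicle transport, gave 0.07 ± 0.07 and -0.19 ± 0.07. Abi3, a WAVE complex partner that microglia express, gave -0.19 ± 0.20 and 0.03 ± 0.20. None of Ppp1r9b, Car10, Spag9 and Abi3 passed the threshold in either condition.

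Wfikkn2, a secreted protein that binds myostatin and GDF11, was the only tested gene of the matrix and muscle group and had the largest difference of the flanking genes. It stood at 1.93, 2.48 and 0.795 CPM in unstressed WT, 0.281, 0.471 and 0.717 CPM in stressed WT, 0.458, 0.411 and 0.299 CPM in unstressed KO, and 0.348, 0.964 and 0.768 CPM in stressed KO. The 2 high libraries were again unstressed WT 1 and 2. The log2 difference was -2.13 ± 0.50 without stress (edgeR adjusted p = 0.0158) and 0.43 ± 0.53 with stress (edgeR adjusted p = 0.785), and without those 2 libraries the first was -1.01 (edgeR adjusted p = 0.449). The 3 tested genes with testis-linked names or little known function gave no call. Mycbpap, a binding partner of the Myc-binding protein, gave -0.38 ± 0.23 and 0.35 ± 0.23, Fam117a gave -0.65 ± 0.29 and 0.33 ± 0.30, and Ankrd40, an ankyrin repeat protein 66.5 kb from Cacna1g, gave -0.02 ± 0.08 and -0.07 ± 0.08. Fam117a was highest in unstressed WT 1 and 2, at 5.06 and 5.24 CPM against 1.74 to 3.73 CPM elsewhere.

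The 7 genes that were not tested had few counts, and nothing is said of their genotype difference. Spata20, the nearest neighbour at 4.7 kb, had 3 to 10 counts per library. Sgca (alpha-sarcoglycan) had 1 to 12, and Eme1, a partner of the Mus81 nuclease that overlaps Lrrc59, had 0 to 9. Chad (chondroadherin), which lies inside the span of Acsf2, had 0 to 4. Over all 12 libraries together Calcoco2, an autophagy receptor, had 4 counts, Igf2bp1, an RNA-binding protein of development, 2 and the glycosyltransferase B4galnt2 1. The limit that a count of 0 allows, 3 counts, is 0.0920 to 0.192 CPM in these libraries and covers counting error only.

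The size of difference that these libraries allow is given by the 95% intervals. With stress the interval lay within 1.5-fold in either direction for 23 of the 30 tested genes and within 2-fold for 27. Without stress it did so for 19 and 26, and on average for 26 and 27. The median absolute log2 difference of the 30 was 0.24 without stress, 0.07 with stress and 0.12 on average, beside 0.23, 0.12 and 0.13 over all genes. Their median signed difference was 0.05, 0.04 and 0.01, beside 0.00 for all genes in each.

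**Figure D4:**
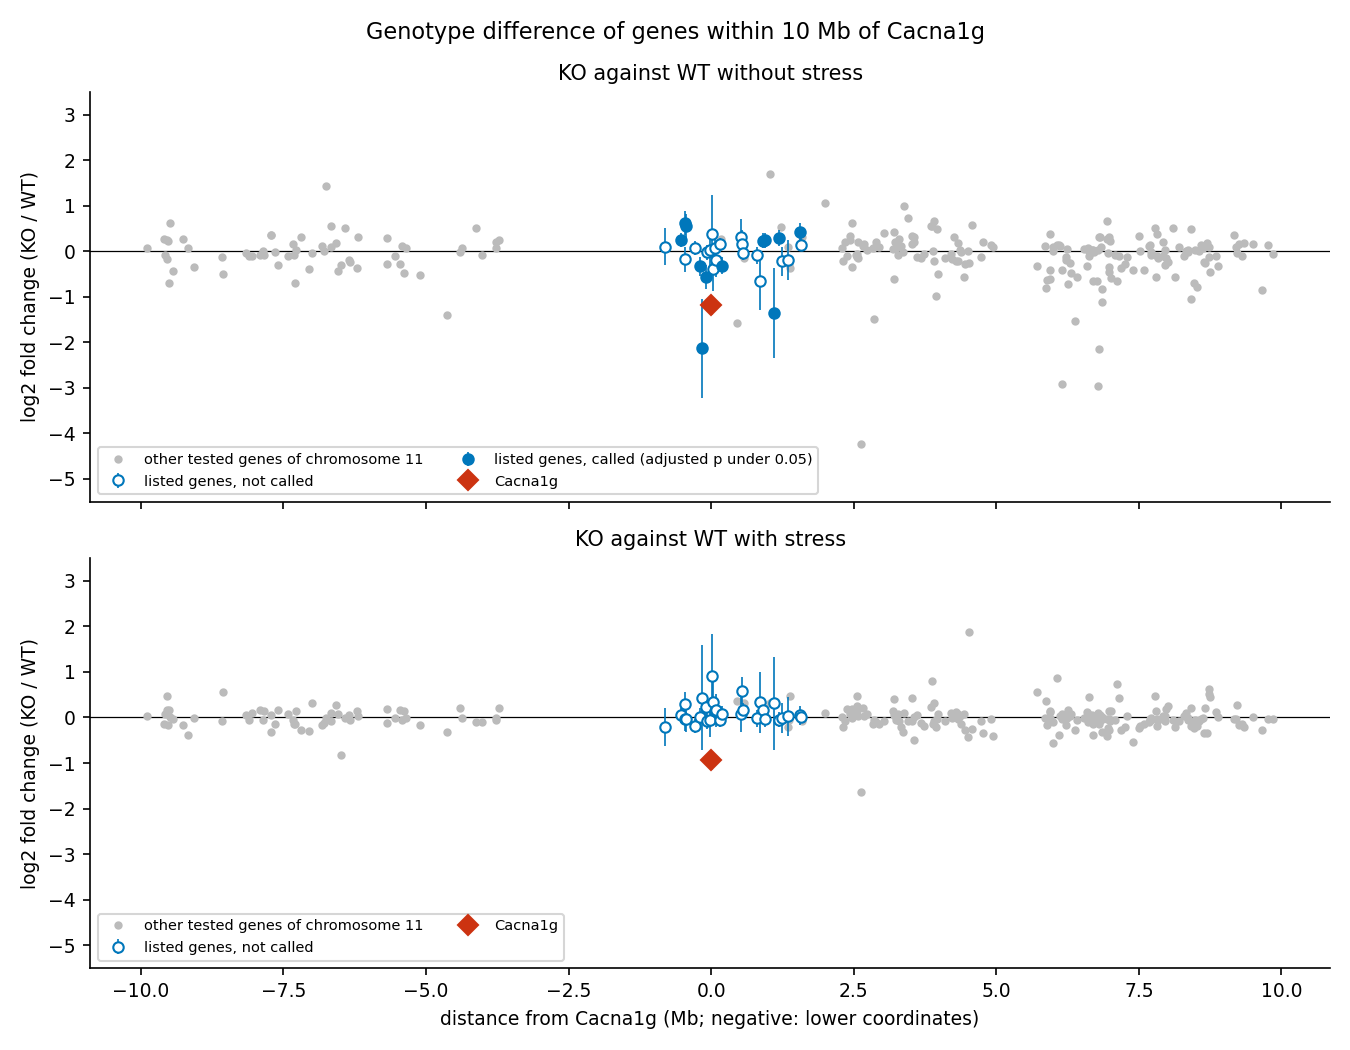
Log2 fold change of KO over WT for tested genes within 10 Mb of Cacna1g against distance along chromosome 11 in Mb, without stress (upper) and with stress (lower). Bars on listed genes and Cacna1g are 95% intervals. Among the listed genes, filled points are called and open points are not. Grey points are the other genes, called or not. The listed genes lie on both sides of 0 without stress, between -2.13 and 0.61, and between -0.21 and 0.91 with stress, where only Cacna1g is called.

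The rest of the neighbourhood was read in the same way. Within 3 Mb of Cacna1g the annotation holds 160 genes, of which 88 are protein coding and 85 of those are in the table. Besides Cacna1g, 60 genes with their whole span inside this limit were tested, and 22 of these (36.7%) were called without stress, beside 255 of the other 1121 (22.7%) on chromosome 11 and 3529 of all genes (23.2%). By distance to the nearest end, which also places Arhgap23, a gene that crosses the 3 Mb limit, in the bin below it, the share called without stress was 37.0% of 27 genes within 1 Mb, 46.2% of 13 between 1 and 2 Mb, 28.6% of 21 between 2 and 3 Mb and 17.0% of 53 between 3 and 5 Mb. It was 24.4% of 160 between 5 and 10 Mb, 23.2% of 211 between 10 and 20 Mb and 22.7% of 696 further away. On average over stress, the shares in the same order were 7.41%, 0%, 9.52%, 0%, 8.75%, 6.64% and 5.17%. The window and distance shares are from the fit of all 12 libraries and were not taken again with libraries left out. Among 20 chromosomes, chromosome 11 ranked 8th by the share called without stress, at 23.5%, and 14th on average, at 5.84%.

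**Figure D5:**
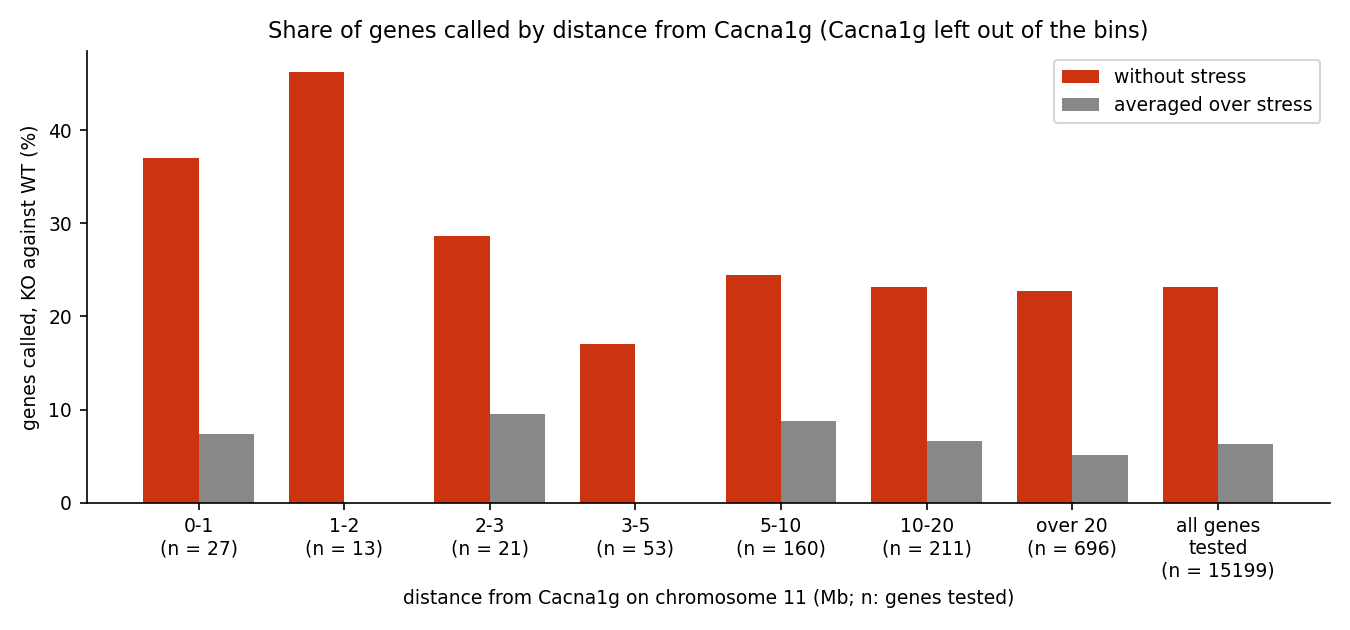
Share of tested genes called between KO and WT (y axis, %) by distance from Cacna1g on chromosome 11 (x axis, Mb, with the number of genes tested), without stress and averaged over stress; Cacna1g is left out of the bins. Without stress the bins within 3 Mb run from 28.6% to 46.2% and hold 13 to 27 genes each, beside 23.2% over all genes. Shares are from the main fit alone.

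Of the 30 tested genes of this window that are not on the list, 10 (33.3%) were called without stress, beside 23.2% of all genes. With stress none was called, beside 0.250% of all genes. Tbx21, a transcription factor on the olfactory bulb list, had a log2 fold change without stress of -4.23 ± 1.00 (edgeR adjusted p = 0.0166), with 29.4 and 24.7 CPM in unstressed WT 1 and 2 and 0.104 to 4.34 CPM elsewhere. Col1a1, a collagen on the meningeal list, gave -1.58 ± 0.42, with 13.9 and 19.1 CPM in those libraries and 2.65 to 6.98 CPM elsewhere. Also called were Cdk5rap3 (0.26), Atp5g1 (0.31), Mrpl10 (0.20), Nxph3 (1.70) and Zfp652os (0.54), higher in KO, and Sp2 (-0.34) and Gpr179 (-1.5), lower in KO. Nxph3 had 6.33 and 11.7 CPM in unstressed WT 1 and 2 and 33 to 105 CPM elsewhere. Gpr179 had 2.82 and 2.97 CPM in those libraries and 0.241 to 1.13 CPM elsewhere. Cdk5rap3 had 20.6 and 20.8 CPM there and 20.5 CPM in unstressed WT 3, and Zfp652os 1.48 and 1.93 CPM there and 1.56 CPM in unstressed WT 3. The 10 Hoxb genes of the window, body-plan transcription factors, had at most 4 counts in a library.

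Stress was also compared within each genotype. In WT 10 of the 30 flanking genes were called, beside 21.9% of all genes: Nme1 (0.46), Nme2 (0.38), Snf8 (0.36), Phb (0.30) and Lrrc59 (0.21) rose with stress, and Wfikkn2 (-1.80), Luc7l3 (-0.58), Mbtd1 (-0.44), Zfp652 (-0.44) and Xylt2 (-0.26) fell, on the log2 scale. This comparison and that of genotype without stress share the 3 unstressed WT libraries. The count of flanking genes fell to 3 without unstressed WT library 1, 2 without stressed WT library 1 and 4 without stressed WT library 3. Of all genes, 967, 2010 and 1660 were called there, beside 3322 with all libraries. The count was 0 without unstressed WT library 2 alone and without stressed WT library 2 alone, where no gene at all was called either. With unstressed WT libraries 1 and 2 both left out, which leaves 1 library in that group, Nme2 stood at 0.42 and Wfikkn2 at -0.67. All 10 kept their sign, but they were picked with that library in the fit, so this is no further support. In KO none was called by edgeR, beside 0.0197% of all genes, while 4 of the 30 and 1398 of all genes had an unadjusted p under 0.05. DESeq2 called Spag9 alone among the 30, beside 43 of all genes. Spag9 stood at 508, 558 and 543 CPM in unstressed KO and 432, 443 and 413 CPM in stressed KO, without overlap, a log2 difference of -0.32 ± 0.07 (edgeR adjusted p = 0.459). Whether a genotype difference changed with stress was tested as the interaction. By edgeR no gene of the 30 and no gene at all was called (0%), 16 of the 30 and 4330 of all genes had an unadjusted p under 0.05, and DESeq2 called 6 of the 30, Luc7l3, Nme1, Nme2, Phb, Spag9 and Wfikkn2, beside 1852 of all genes. Without unstressed WT library 3 edgeR called 11 of the 30 beside 3851 of all genes.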

How the data were processed

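RNA from 12 libraries was measured. The deposited values are the authors' estimated counts for each gene symbol, made with Trim Galore 0.6.6, STAR 2.7.9a and RSEM 1.3.1 on mm10, with DESeq2 1.36.0 also listed, per the submitters' processing notes. Libraries used a directional kit, per the labels' protocols, while annotation, filtering and the use of strand in counting were not stated. Estimated counts are shared out among similar sequences: of the 37 genes only Calcoco2 carried decimals, in 2 libraries.

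Counts were rounded. Genes passing edgeR's filterByExpr (minimum count 10, minimum total 15) numbered 15199 of 24411, with 4800 at 0 throughout. R 4.3.3, edgeR 4.0.16, limma 3.58.1 and DESeq2 1.42.0 were used. One quasi-likelihood fit of 4 group means (8 residual degrees of freedom, TMM scaling) gave all contrasts, two-sided, with Benjamini-Hochberg adjustment over all tested genes. Standard errors are the log2 fold change over the square root of F, and a prior count of 2 enters log2 CPM. With 3 libraries a side the smallest permutation p is 0.1, and no such test is given. The fit was tested on simulated data.

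Members and lists were chosen with earlier results of these data known. Library values are given for the 14 genes with the smallest p on average among those called or among the 6 nearest on each side. Those of Ngfr, and the ranges of a few others, were added after their values were seen. Genes off the list were named if called within 3 Mb, except 1 that is not reported here. Positions are from GENCODE M21, with RefSeq where absent (14678 of 15199 symbols, 96.6%). Replicate pairs of a group differed beyond sampling noise. Alternatives were DESeq2's size factors, no filter, DESeq2, only the groups compared, a replicate block, each library left out, both bulb-marked WT libraries or the striatal-marked KO library left out, and overlapping genes left out.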

Additional observations from a re-analysis of the deposited data

How the results depend on the processing

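The direction and call of Cacna1g held under all alternatives, with log2 fold changes of -1.24 to -1.11 without stress and -1.0 to -0.85 with stress when single libraries were left out. The counts of flanking genes called moved. Without stress (12 called) there were 0 with only the groups compared, 0 without unstressed WT libraries 1 and 2, and 0 to 14 with 1 library left out, the 0 without unstressed WT library 2 and the 14 without library 3. It was 5 without unstressed WT library 1, and 3 and 6 without unstressed KO libraries 2 and 3. With stress (0 called) DESeq2 gave 1 and every other alternative 0. On average (2 called) there was 1 with no filter, 4 with DESeq2 (Samd14, Slc35b1, Snf8 and Nme2), 0 without unstressed WT libraries 1 and 2, 1 without stressed KO library 1, and 0 to 5 with 1 library left out. The interaction (0 called) gave 1 with DESeq2's size factors and 1 with no filter, Luc7l3 in both, beside 198 and 143 of all genes, 6 with DESeq2 beside 1852, and 0 to 11 with 1 library left out, the 11 without unstressed WT library 3 beside 3851. Stress in WT (10 called, beside 3322 of all genes) gave 0 with only the groups compared, beside 1 of all genes. With 1 library left out it gave 0 to 14, the 0 beside no gene at all and the 14, without unstressed WT library 3, beside 5635 of all genes. Stress in KO (0 called) gave 1 with DESeq2. That 1 call for stress in KO stood beside 43 of all genes. The cause of these moves in the counts was not tested, and the fits that leave libraries out also hold fewer libraries.

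Of all genes, 3529 were called without stress. That became 18 with only the groups compared, 18 without unstressed WT libraries 1 and 2, and 234 to 5729 with 1 library left out. With stress 38 became 296 with DESeq2, 82 without unstressed WT libraries 1 and 2, 25 without stressed KO library 1, and 19 to 116 with 1 left out. On average 962 became 1900 with DESeq2, 78 without unstressed WT libraries 1 and 2, 590 without stressed KO library 1, and 164 to 3308 with 1 left out. Flanking genes with all KO libraries on one side of all WT libraries numbered 3 without unstressed WT libraries 1 and 2. These were Epn3, Mbtd1 and Samd14, beside 3.88% of all genes. Without stressed KO library 2 there was 1, Utp18, beside 2.88% of all genes, and otherwise there were 0.

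Library numbers recur in each group, and same-numbered KO and WT libraries deviated from their group means with r of 0.26, 0.05 and 0.36 without stress and -0.12, -0.07 and -0.01 with stress. Not every pair passed 0.1, and without stress WT library 2 correlated best with KO library 1, so the numbers were not taken as a pairing. With a replicate block 9 flanking genes were called without stress, beside 3155 of all genes (20.8%). With stress 0 were called, beside 27 of all genes (0.178%), and on average 0, beside 785 (5.16%). On average Samd14 and Slc35b1 then had edgeR adjusted p of 0.0519 and 0.0668. No called value of the 15 genes followed singly turned its direction under any alternative, though each alternative reused libraries of the main fit. Genes near the limit of counting, such as Epn3 and Wfikkn2, carry intervals wider than 2-fold.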
